A study of Homo sapiens with 34 samples.

Results

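Aminoacyl-tRNA synthetases join each amino acid to its tRNA, the step that supplies every ribosome with charged tRNA. Cells keep one set of these enzymes for the cytosol and another for the mitochondrion, and both sets are encoded in the nucleus and made on cytosolic ribosomes. Several cytosolic enzymes sit together in the multi-synthetase complex on the scaffold proteins AIMP1, AIMP2 and EEF1E1, while others act free, and GARS and KARS each give enzyme to both compartments. Genes for many cytosolic synthetases are known targets of ATF4, the transcription factor of the amino acid response, which acts when uncharged tRNA accumulates. Here the mRNAs of 36 synthetase genes, 20 cytosolic and 16 mitochondrial, were followed. They were found by their gene names, under the older symbols such as AARS for AARS1, among 19041 genes with 3′ UTR reads, and all 36 were present.

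The cells were hTERT-RPE1, an immortalised human retinal pigment epithelial line, with doxycycline-inducible constructs. The line labelled knockdown induced an shRNA against CCND1, the gene of cyclin D1, and in the study's account its cells are large. The line labelled overexpression induced the same shRNA together with an shRNA-resistant CCND1 allele, and its cells are small. Both lines received 0.5 µg/mL doxycycline throughout, and from day 4 they took up 10 µM 4-thiouridine (s4U), a labelled nucleoside, for 24 h with fresh medium every 3 h. They were then chased in 1 mM uridine for up to 1440 min, and unlabelled control cells were given uridine without s4U. SLAM-seq reads s4U in RNA as a T>C conversion, and the conversion rate of an mRNA decreases with the turnover of its labelled molecules. The series held 34 libraries, 17 per line, in 4 time courses (replicates 1 and 2 of each line), of which 30 libraries were labelled and 4 were not. Whether the replicates came from separate cultures is not stated. In tests with 1 value per course, p-values thus measure only the spread between courses. In the tests of s4U and of the chase they measure the spread between single libraries. Those tests took the libraries of a course as separate samples.

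Libraries held 14712332 to 44480703 reads in 3′ UTRs. Reads in the 3′ UTR of CCND1 were at 81.8, 161 and 199 CPM of all 3′ UTR reads (lowest, median and highest of 17 libraries) in the knockdown line and at 40.3, 58.2 and 82.4 CPM in the overexpression line. The shRNA acts on the native transcript in both lines and a CCND1 transgene that lacks this UTR leaves no trace in the interval, so these reads check neither label, and directions below follow the labels. The mesenchymal markers VIM, FN1 and CDH2 were abundant in both lines. Of the epithelial markers the keratins KRT8 and KRT18 were abundant, while KRT19, CDH1 and EPCAM were at a median of 0 CPM. Of the pigment epithelium genes RPE65, RLBP1, BEST1 and TYR were at a median of 0 CPM and PMEL near it, whereas MITF was at a median of 76.9 CPM in the knockdown line and 38.7 CPM in the overexpression line and OTX2 at 1.77 CPM in the knockdown line and 2.54 CPM in the overexpression line. The synthetase mRNAs of 3 libraries stood apart. Their median absolute log2 deviation from the other libraries of the line was 0.60 in the unlabelled library of knockdown replicate 1, 0.44 in the unlabelled library of overexpression replicate 1 and 0.59 in the 720 min library of overexpression replicate 1, against 0.09 to 0.28 in the other 31. In these 3 the deviation of a synthetase mRNA correlated with the share of T bases in its 3′ UTR interval (Pearson r of 0.70, 0.44 and 0.46 across 35 genes, which share a library and are not replicates), against r of -0.44 to 0.37 in the other 31. The part of base composition in the results below was not tested.

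A promoter sequence shared by several of the cytosolic genes is shown first because it is the element through which ATF4 acts. The C/EBP-ATF response element was searched as TGATGNAAN, on both strands, from 250 bases before to 50 bases after the RefSeq gene start (GRCh38.p14). Promoters were listed for 30 of the 36 genes. The element occurred in 6 of 16 cytosolic promoters (37.5%), in 1 of 14 mitochondrial promoters (7.14%) and in 3.61% of all 35116 promoters. The lines below give 30 bases on the strand of each gene with the element in capitals, and ASNS and CHAC1, textbook genes of the amino acid response, follow for comparison.
AARS, chr16:70289675-70289704, minus strand: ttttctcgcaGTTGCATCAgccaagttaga
CARS, chr11:3057407-3057436, minus strand: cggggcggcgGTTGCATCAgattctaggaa
IARS, chr9:92293692-92293721, minus strand: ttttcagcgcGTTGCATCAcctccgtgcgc
MARS, chr12:57488053-57488082, plus strand: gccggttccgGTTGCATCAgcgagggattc
NARS, chr18:57621803-57621832, minus strand: ctacgctctcTGATGCAACgccggaatcgc
TARS, chr5:33440956-33440985, plus strand: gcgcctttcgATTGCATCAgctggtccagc
YARS2, chr12:32756075-32756104, minus strand: tccacactgcTGATGGAAAaattaagttta
ASNS, chr7:97872457-97872486, minus strand: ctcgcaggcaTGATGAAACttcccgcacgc
CHAC1, chr15:40953251-40953280, plus strand: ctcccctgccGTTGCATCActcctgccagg

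All 6 cytosolic matches held the same core, TGATGCAA or its reverse complement TTGCATCA, which lies within the wider element and occurred in 0.866% of all promoters. The core was also in CHAC1, whereas the YARS2 and ASNS matches had another base in the open position. In CARS, MARS, TARS, IARS and NARS the element began within the bases from -14 to 15 around the gene start, and in AARS it began at -188. A match is a description of these letters, not a binding site.

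By the mean of the lines, every cytosolic synthetase mRNA was above every mitochondrial one, though WARS, the lowest cytosolic gene, and CARS2, the highest mitochondrial gene, differed by less than the spread between courses. The cytosolic genes ranged from 59.5 CPM (WARS, the tryptophan enzyme) to 223 CPM (GARS, the glycine enzyme of both compartments), with a median of 101 CPM. The mitochondrial genes ranged from 5.33 CPM (PARS2, the proline enzyme) to 59.3 CPM (CARS2, the cysteine enzyme), with a median of 15.1 CPM. SARS2, the mitochondrial serine enzyme, was read at 0.227 CPM from only 211 reads in all libraries, because its main 3′ UTR interval is shared with AC011455.2 and its 12916 reads could not be given to either gene. The libraries prime at the poly(A) tail and read each mRNA near its 3′ end, so CPM was not divided by length. The summed level of the 20 cytosolic mRNAs was 2285 and 2371 CPM in the knockdown courses, against 2352 and 2527 CPM in the overexpression courses. The sum of the 16 mitochondrial mRNAs was 314.5 and 329.2 CPM in the knockdown courses, against 314.3 and 329.2 CPM in the overexpression courses. The courses of the lines overlapped in both sums.

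**Figure D1:**
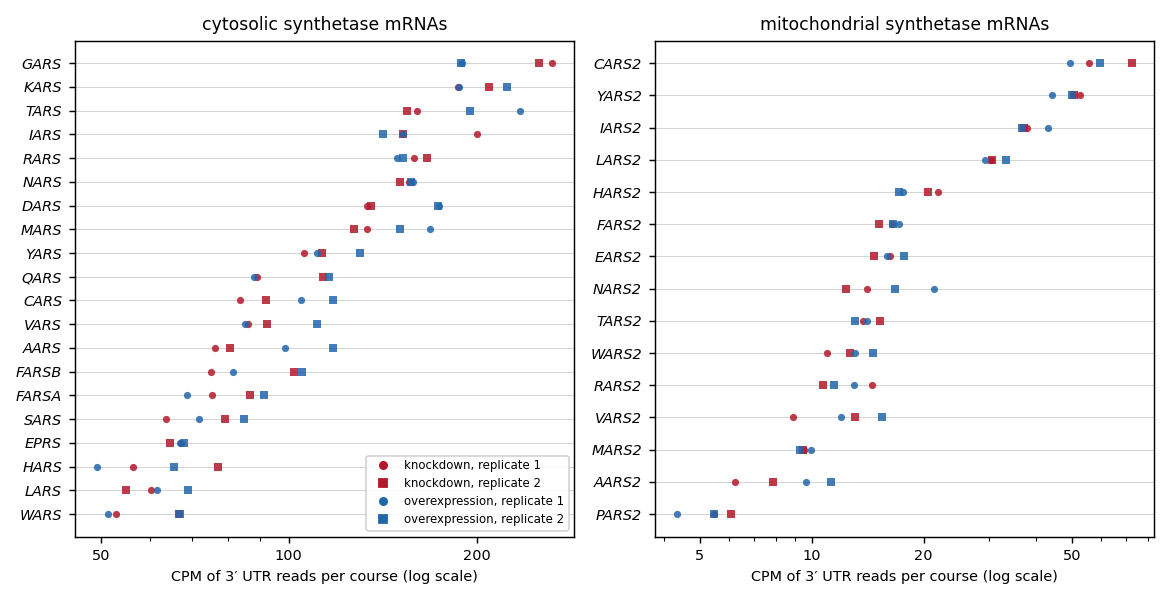
Level of each synthetase mRNA but SARS2 in CPM (log scale) in the 4 courses, cytosolic genes left and mitochondrial genes right, ordered by mean level. Red circles and squares are knockdown replicates 1 and 2, blue ones overexpression replicates 1 and 2. GARS, at 223 CPM, heads the cytosolic genes, CARS2, at 59.3 CPM, the mitochondrial ones.

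Where the same amino acid has its own gene for each compartment, the cytosolic mRNA was the more abundant in every course. Over the 10 pairs with a label value in every course the ratio ran from 1.27 (CARS over CARS2 in knockdown replicate 2) to 16.8 (MARS over MARS2, the methionine enzymes, in overexpression replicate 1). The standard deviation of log2 CPM over the 34 libraries had a median of 0.30 in the cytosolic genes and 0.36 in the mitochondrial genes without SARS2. All genes tested within the same ranges of level had medians of 0.32 (2528 genes) and 0.43 (6120 genes).

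The comparison of the lines asked whether synthetase mRNAs differ between the line of large cells and the line of small cells. Cell size cannot be told apart here from the constructs and other differences between the lines. In the knockdown line 3 cytosolic synthetase mRNAs were lower (AARS, TARS and DARS), 1 was higher (GARS), and none of the 16 mitochondrial mRNAs passed the test. Each called difference was modest, with a fold of 0.72 to 0.77 for the lower genes and of 1.36 for GARS. Of all 13165 genes tested, 10.7% were lower, 11.2% higher and 21.9% either at an adjusted p under 0.05, so that 3 lower, 1 higher and 4 of 36 called were smaller shares than among all genes. CPM is a share of the library, so a change per cell and a change relative to other mRNAs cannot be told apart in these bulk samples.

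AARS, the alanine enzyme, had 76.2 and 80.5 CPM in the knockdown courses, against 98.6 and 118 CPM in the overexpression courses. Over single libraries it was at 54.5, 79.98 and 116 CPM (lowest, median and highest of 17) in the knockdown line and at 42.2, 113 and 129 CPM in the overexpression line. The courses did not overlap, whereas the libraries did, and the lowest overexpression value came from the 720 min library that stands apart. Without the 3 libraries that stand apart the overexpression range was 84.9 to 129 CPM and still overlapped with the knockdown range of 54.5 to 116 CPM. The log2 difference was -0.46 ± 0.13 (SE; edgeR quasi-likelihood test, adjusted p = 0.031).

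TARS, the threonine enzyme, had 161 and 155 CPM in the knockdown courses, against 235 and 195 CPM in the overexpression courses. Single libraries lay at 115, 143 and 216 CPM in the knockdown line and at 151, 183 and 432 CPM in the overexpression line. The highest overexpression value was again that of the 720 min library that stands apart, and without the 3 such libraries the highest was 226 CPM. The log2 difference was -0.45 ± 0.13 (SE; edgeR, adjusted p = 0.034). It was -0.31 (adjusted p = 0.030) without the unlabelled and the 720 min libraries in the sums, an alternative chosen after seeing the data.

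DARS, the aspartate enzyme and a member of the multi-synthetase complex, had 133 and 136 CPM in the knockdown courses, against 174 CPM in both overexpression courses. Single libraries lay at 113, 133 and 165 CPM in the knockdown line and at 120.1, 174 and 213 CPM in the overexpression line. The log2 difference was -0.37 ± 0.12 (SE; edgeR, adjusted p = 0.045), the call closest to the threshold. Upper-quartile scaling gave an adjusted p of 0.062.

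GARS was the one synthetase mRNA higher in the knockdown line, at 264 and 252 CPM in the knockdown courses, against 189.5 and 189 CPM in the overexpression courses. Single libraries lay at 209.7, 242 and 326 CPM in the knockdown line and at 154, 181 and 246 CPM in the overexpression line. Without the 3 libraries that stand apart the ranges still overlapped, at 209.7 to 326 CPM in the knockdown line and 154 to 216 CPM in the overexpression line. The log2 difference was 0.45 ± 0.12 (SE; edgeR, adjusted p = 0.021). Of the GARS reads 15.5% were multimapped, and its main interval (hg38 chr7:30633861-30634033, plus strand) carried 98.6% of its reads. Without intervals of over 10% multimapped reads only minor intervals were left, and the log2 difference was 0.55 with an adjusted p of 0.21, so that the call was lost while the difference was about as large. With 1 course left out, AARS passed the test only without overexpression replicate 1 (adjusted p = 0.029) and TARS only without overexpression replicate 2 (0.024), while DARS and GARS passed in none of the 4 fits (0.157 to 0.201 and 0.055 to 0.110).

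**Figure D2:**
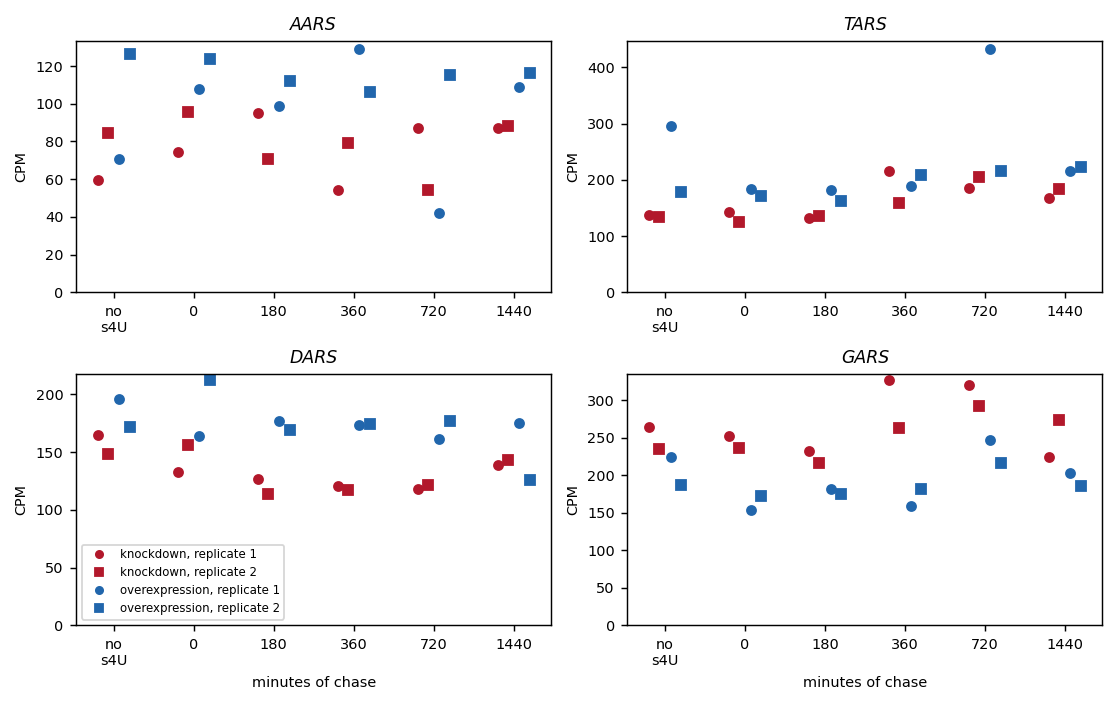
CPM of AARS, TARS, DARS and GARS in the unlabelled, 0, 180, 360, 720 and 1440 min libraries of the 4 courses, each axis from 0. Red is the knockdown line and blue the overexpression line. TARS was at 432 CPM and AARS at 42.2 CPM in the 720 min library of overexpression replicate 1.

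In the multi-synthetase complex 1 of 8 enzymes was lower and none higher, and the scaffolds AIMP1 (log2 difference -0.04), AIMP2 (-0.28) and EEF1E1 (-0.13) did not pass the test. Among the 12 free cytosolic genes 2 were lower and 1 higher. With 10.7% of all genes lower and 11.2% higher, neither count sets these groups apart. The subunits of the phenylalanine enzyme, FARSA (0.02 ± 0.16) and FARSB (-0.07 ± 0.17), both had log2 differences within 1 SE of 0. The median log2 difference was -0.07 over the cytosolic genes and -0.03 over the mitochondrial genes, against -0.01 over all genes tested.

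The mitochondrial enzymes charge the tRNAs that the mitochondrial genome itself encodes. AARS2, their alanine enzyme, had 6.21 and 7.87 CPM in the knockdown courses, against 9.64 and 11.3 CPM in the overexpression courses, a log2 difference of -0.57 ± 0.20 (SE; edgeR, adjusted p = 0.069). NARS2, the asparagine enzyme, had a log2 difference of -0.53 ± 0.17 (adjusted p = 0.053). Neither passed the threshold, although the courses of the lines did not overlap in either gene. At the other end HARS2, the histidine enzyme, had 0.28 ± 0.15 (adjusted p = 0.198), and SARS2, with its few reads, 0.50 ± 1.13. With the same amino acid, the cytosolic and the mitochondrial gene had log2 differences of opposite sign in 6 of 13 pairs.

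**Figure D3:**
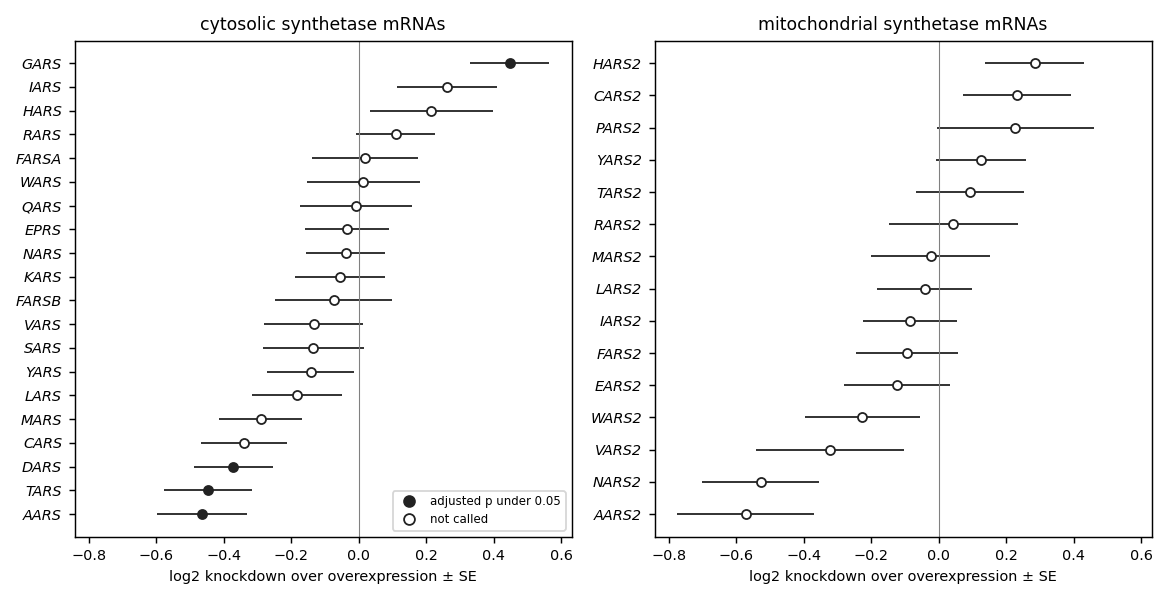
Log2 of the knockdown over the overexpression level of each synthetase mRNA but SARS2, with its SE as bars, cytosolic genes left and mitochondrial genes right. Filled points passed an adjusted p of 0.05 (AARS, TARS, DARS and GARS), open points did not. The lowest values on the right are AARS2 (-0.57) and NARS2 (-0.53).

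Of the 6 cytosolic genes with the C/EBP-ATF element in the promoter 2 were lower (AARS and TARS) and none higher, with a median log2 difference of -0.31. Their other values were -0.34 for CARS, the cysteine enzyme, -0.29 for MARS, -0.04 for NARS and 0.26 for IARS, the isoleucine enzyme, of whose reads 45.2% were multimapped. Of the 10 listed cytosolic genes without it 1 was higher (GARS) and none lower, with a median of 0.00. DARS, LARS, VARS and YARS are in neither count. Among all genes 10.7% were lower and 11.2% higher, and with so few genes these counts do not set the genes with the element apart. In a list of 13 synthetases bound by ATF4 in mouse fibroblasts 2 were lower and 1 higher, with a median of -0.13.

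Further genes of the amino acid response differed between the lines. ATF4 itself had 218 and 281 CPM in the knockdown courses, against 401 and 397 CPM in the overexpression courses, a log2 difference of -0.68 ± 0.14 (SE; edgeR, adjusted p = 0.0076). ASNS, asparagine synthetase, had 9.94 and 11.0 CPM in the knockdown courses, against 22.8 and 19.2 CPM in the overexpression courses, a log2 difference of -1.01 ± 0.16 (adjusted p = 0.0019). TRIB3, a pseudokinase induced by ATF4, was lower by the same test (-0.60, adjusted p = 0.030), while CHAC1 (-0.12) and DDIT3 (-0.31) did not pass it. In a list of this response, chosen with earlier results of these data known, 29 genes were measured. Of these 8 were lower and 2 higher, with a median of -0.20, beside 10.7% lower, 11.2% higher and a median of -0.01 over all genes. The higher ones were NUPR1 (0.81) and STC2 (0.48), named after their values were seen. Of 15 other genes of tRNA charging 1 was higher, the deacylase DTD2 (0.52, also named after its value was seen), and none was lower.

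The unlabelled libraries were used to ask whether s4U itself moved these mRNAs. Those of knockdown replicate 1 and overexpression replicate 1 are among the libraries that stand apart. A count of 0 in this test therefore does not show that s4U left the mRNAs unmoved. Between the 0 min and the unlabelled libraries, 4 against 4, edgeR called 0 of 35 synthetase genes tested and 0 of 11539 genes in all (0%), with 1 and 390 at an unadjusted p under 0.05, and DESeq2 called 4 genes in all but no synthetase. The 1 synthetase was IARS, with a log2 of -0.60 ± 0.27 (adjusted p = 0.88). IARS was at 396 CPM in the unlabelled library of knockdown replicate 1, which stands apart, and at 119.6 to 206 CPM in the others.

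In the chase, synthetase mRNAs mostly stayed near their 0 min level. No synthetase passed the test at 180, 360 or 1440 min, where 0.229%, 0.335% and 1.07% of 12237 genes did, and 1 of 36 passed at 720 min, where 1.5% did. The medians over the cytosolic genes were -0.05, -0.07, -0.10 and -0.02 at the 4 times, and over the mitochondrial genes -0.07, 0.05, 0.12 and 0.00, on the log2 scale against 0 min. The gene called at 720 min was TARS. It was at 143 and 126 CPM at 0 min and at 186 and 206 CPM at 720 min in the knockdown courses, and at 183 and 171 CPM at 0 min and 432 and 216 CPM at 720 min in the overexpression courses. Its level was thus higher at 720 min in all 4 courses. The log2 change was 0.72 ± 0.17 (SE; edgeR, adjusted p = 0.036), and 0.43 (adjusted p = 0.056) without the 720 min library of overexpression replicate 1. GARS had 0.41 ± 0.13 at the same time (adjusted p = 0.12). EARS2, the mitochondrial glutamate enzyme, had -0.67 ± 0.20 at 1440 min (adjusted p = 0.13). The change at 1440 min over 0 min was also compared between the lines, where edgeR called 0 of 36 synthetases and 0 of 12237 genes (0%), with 0 and 342 at an unadjusted p under 0.05, and DESeq2 called 1 gene in all and no synthetase.

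After the pulse both classes of synthetase mRNA carried label at a similar pooled rate. Pooled over genes, 0.98% and 0.91% of covered T bases of the cytosolic mRNAs read as C at 0 min in the knockdown courses, against 1.02% and 0.98% in the overexpression courses. The mitochondrial mRNAs had 0.90% and 0.79% in the knockdown courses, against 0.98% and 0.85% in the overexpression courses. In the unlabelled libraries the rates were 0.01% to 0.03% in both classes. These rates rest on 1240529 to 1797557 covered T bases for the cytosolic mRNAs and 188747 to 335684 for the mitochondrial ones at 0 min, outside intervals with over 10% multimapped reads.

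Single genes varied more, above all the less abundant ones. In the main intervals, summed over the courses, the rate at 0 min ran from 0.573% (VARS) to 1.18% (HARS) among cytosolic genes. Among mitochondrial genes it ran from 0.317% (AARS2) to 1.16% (PARS2). TARS had rates of 0.97% and 1.07% at 0 min in the knockdown courses, against 1.19% and 1.17% in the overexpression courses. WARS2, the mitochondrial tryptophan enzyme, had 0.38% and 0.29% in the knockdown courses, against 0.24% and 0.88% in the overexpression courses. RARS2, the mitochondrial arginine enzyme, had 1.99% and 1.13% in the knockdown courses, against 0.44% and 0.58% in the overexpression courses, and its interval is only 35 bases long with 13 T. Reads carry no molecular identifiers, so confidence intervals of such rates cover counting error only. By limma on the background-corrected rate at 0 min, 0 of 31 synthetases and 0 of 8892 genes (0%) differed between the lines at an adjusted p under 0.05. At an unadjusted p under 0.05 there were 2 synthetases, MARS2 (log2 difference -1.60) and RARS2 (2.02), and 546 genes in all.

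At 180 and 360 min of the chase mitochondrial synthetase mRNAs, pooled over genes, kept less of their label than cytosolic ones in all 4 courses. This order did not hold at every later time. Before 180 min the medians over single genes were mixed. The mitochondrial median was higher at 20, 45 and 90 min in knockdown replicate 2 and at 10 and 45 min in overexpression replicate 2. It was lower in the other labelled libraries between 0 and 180 min. Pooled values leave out multimapped intervals, so GARS and IARS enter them by minor intervals alone. At 180 min the cytosolic mRNAs, pooled over genes and corrected for the unlabelled rate, kept 86.1% and 91.9% of their 0 min rate in the knockdown courses, against 84.5% and 89.6% in the overexpression courses. The mitochondrial mRNAs kept 61.3% and 69.3% in the knockdown courses, against 65.8% and 74.6% in the overexpression courses. The classes did not overlap at this time, and all genes pooled lay between them in each course, at 80.9% to 82.1%. At 360 min the cytosolic mRNAs kept 51.4% and 65.2% in the knockdown courses, against 57.4% and 48.9% in the overexpression courses. The mitochondrial mRNAs kept 48.5% and 52.6% in the knockdown courses, against 42.4% and 25.7% in the overexpression courses, each below the cytosolic value of its own course. All genes kept 54.9% and 57.2% in the knockdown courses, against 53.5% and 47.9% in the overexpression courses, which in knockdown replicate 1 was above both classes. At 720 min the cytosolic mRNAs kept 19.5% and 22.0% in the knockdown courses, against 6.98% and 12.9% in the overexpression courses. The mitochondrial mRNAs kept 13.5% and 25.8% in the knockdown courses, against 2.06% and 10.6% in the overexpression courses, so that in knockdown replicate 2 the order was reversed. All genes pooled kept more label than the cytosolic mRNAs at this time in all 4 courses, at 27.4% and 26.0% in the knockdown courses, against 14.1% and 19.5% in the overexpression courses. Pooling weights each gene by its covered T bases, and the median over single genes gave another order. By that median the cytosolic mRNAs kept more than all genes at 360 and 720 min in each course. At 720 min their medians were 17.9% and 20.3% in the knockdown courses, against 2.44% and 13.3% in the overexpression courses. The medians of all genes were 6.77% and 4.97%, against 0.578% and 3.72%. The mitochondrial median was not below that of all genes in every course. At 180 min it was 81.5% in knockdown replicate 2, against 68.3% for all genes. At 360 min it was 38.9% in overexpression replicate 1, against 35.8% for all genes. In the other courses at each of these times it was below that of all genes. At 1440 min at most 3.48% of the pooled label was left in either class, and the pooled mitochondrial value was the higher in knockdown replicate 1 and overexpression replicate 2. No p is given, since genes of a class are not replicates. The mitochondrial mRNAs were less abundant and rested on fewer T bases, and the part of depth in this contrast was not tested.

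**Figure D4:**
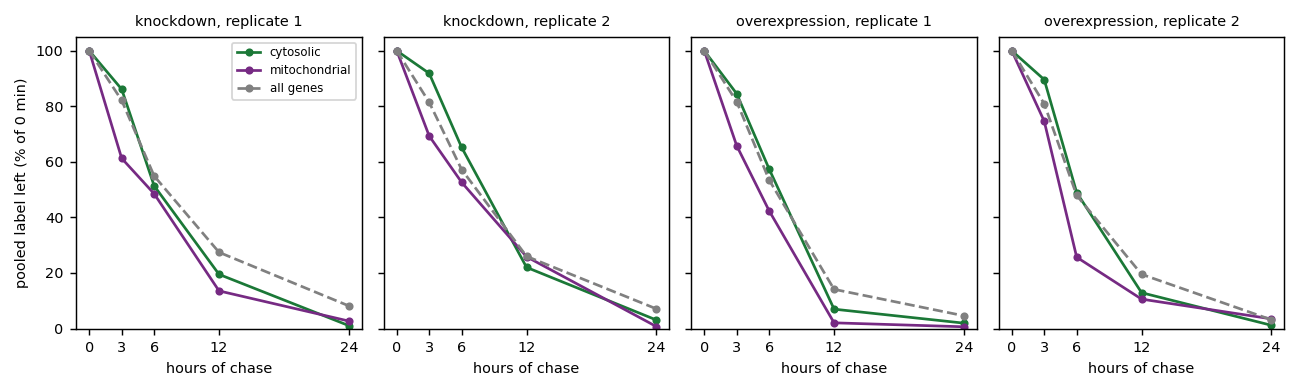
Label left, in percent of the background-corrected T>C rate at 0 min, against hours of chase, pooled over the 20 cytosolic genes, the 16 mitochondrial genes and all 17037 genes, in a panel per course. Intervals with over 10% multimapped reads are left out, so GARS and IARS enter by minor intervals alone. The mitochondrial line lies below the cytosolic one at 3 h and 6 h in all 4 courses, and above it at 12 h in knockdown replicate 2.

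The contrast did not hold for every pair of enzymes. At 360 min the mitochondrial gene had less label left than its cytosolic counterpart in 27 of 40 comparisons over 10 pairs and 4 courses, and in all 4 courses for 4 pairs (LARS2, MARS2, WARS2 and YARS2). YARS2, the mitochondrial tyrosine enzyme, kept 15.8% and 25.7% in the knockdown courses, against 11.2% and 26.2% in the overexpression courses. YARS, its cytosolic counterpart, kept 54.7% and 81.8% in the knockdown courses, against 61.3% and 38.9% in the overexpression courses. MARS2 kept 19.8% and 4.88% in the knockdown courses and none above background in the overexpression courses. On the other side IARS2, the mitochondrial isoleucine enzyme, kept 99.5% and 88.4% in the knockdown courses, against 60.9% and 58.4% in the overexpression courses, more than IARS in 3 of 4 courses.

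Half-lives came from an exponential fit to the label left over 6 and 9 time points in the knockdown courses and 7 and 8 in the overexpression courses, with fits of R2 under 0.6 left out. The cytosolic mRNAs had median half-lives of 6.86 h (16 genes) and 7.14 h (13) in the knockdown courses, against 6.61 h (15) and 6.75 h (17) in the overexpression courses. All genes fitted had medians of 4.32 and 5.07 h in the knockdown courses, against 4.66 and 4.14 h in the overexpression courses, so that the cytosolic median was longer in each course. The mitochondrial mRNAs had medians of 1.74 h (11 genes) and 4.81 h (3) in the knockdown courses, against 3.01 h (6) and 3.36 h (10) in the overexpression courses. These were shorter than the median of all genes in each course, but rest on few and changing genes. In knockdown replicate 2 the mitochondrial fits left out ran from 0.141 h (PARS2) to 61.8 h (AARS2). Most of them were above the 5.07 h of all genes. The median of 1.74 h in knockdown replicate 1 stands beside 48.5% of pooled mitochondrial label left at 360 min. How far this order depends on the R2 filter was not tested.

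Between the lines no synthetase half-life passed the test. By limma 0 of 14 synthetases and 0 of 3311 genes (0%) with a half-life in every course differed at an adjusted p under 0.05, with 0 and 254 at an unadjusted p under 0.05. On the log2 scale the median of knockdown over overexpression was 0.12 over 11 cytosolic and 0.24 over 3 mitochondrial genes, against 0.20 over all genes tested. DARS had the highest ratio, with 7.94 and 9.81 h in the knockdown courses, against 6.51 and 5.16 h in the overexpression courses (log2 0.61 ± 0.31 SE, limma adjusted p = 0.64). TARS had 5.20 and 6.24 h in the knockdown courses, against 4.23 and 4.27 h in the overexpression courses (0.42 ± 0.30, adjusted p = 0.69). HARS, the cytosolic histidine enzyme, had the lowest ratio (-0.41 ± 0.42, adjusted p = 0.78). Of the mitochondrial genes HARS2 had the highest ratio (0.39 ± 0.41, adjusted p = 0.78) and CARS2 the lowest (0.02 ± 0.45, adjusted p = 0.99). GARS, whose main interval is multimapped, entered only when such intervals were kept. It then had 6.23 and 5.92 h in the knockdown courses, against 4.05 and 3.89 h in the overexpression courses (0.61 ± 0.28, adjusted p = 0.63). In DARS, TARS and GARS the courses of the lines did not overlap, yet these differences are within the error that the fit over all genes allows with 2 courses a line.

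**Figure D5:**
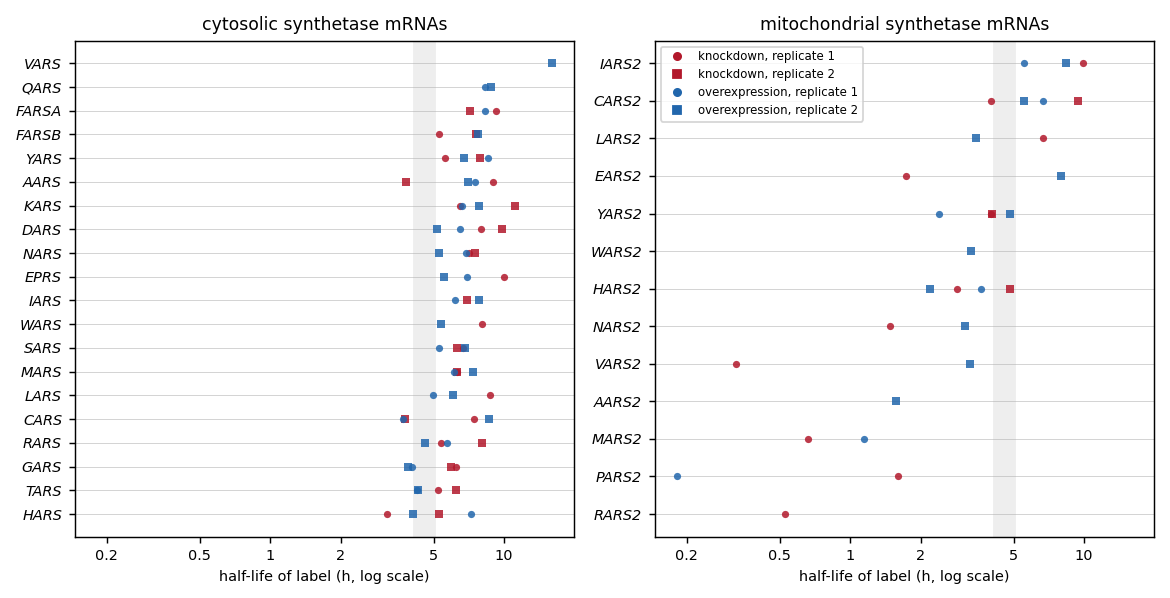
Half-life of label in hours (log scale) of each synthetase mRNA in the courses where its fit was kept, cytosolic genes left and mitochondrial genes right. Red is the knockdown line and blue the overexpression line, and the grey band spans the medians of all genes in the 4 courses, 4.14 to 5.07 h. Most cytosolic points lie right of the band.

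The label left at 360 min needs no fit, but its test took only genes with label above background at 0 and 360 min in every course. AARS2, EARS2, MARS2, PARS2, TARS2, WARS2 and VARS, each with none above background at 0 or 360 min in at least 1 course, were thus not tested, nor were SARS2, with its few reads, and GARS and IARS, with their multimapped intervals. By limma 0 of 26 synthetases and 0 of 7112 genes (0%) differed between the lines at an adjusted p under 0.05. At an unadjusted p under 0.05 there were 1 synthetase, FARS2, the mitochondrial phenylalanine enzyme (log2 difference 2.27 ± 0.77, adjusted p = 0.86), and 357 genes in all. FARS2 kept 78.0% and 27.8% in the knockdown courses, against 6.53% and 14.2% in the overexpression courses.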

How the data were processed

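The deposited tables hold raw counts of reads, multimapped reads, covered T bases and T>C conversions for 71668 annotated 3′ UTR intervals, obtained for the authors by a service provider from 75 ng of RNA and 100 nt reads (SLAMdunk 0.4.3, hg38). The deposited CPM column, counts scaled to mapped reads, served to recover mapped reads, and the deposited conversion rate is a fraction of covered T bases. Intervals were summed per symbol, leaving out 1168 intervals of several genes (2.28% to 2.74% of reads). Half-lives and pooled label also left out 7814 intervals with over 10% multimapped reads, except in the values of GARS and IARS themselves.

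Abundance was tested with edgeR 4.0.16 (TMM, filterByExpr, quasi-likelihood) on the sum of the 6 libraries that each course has, 2 courses against 2. Label and chase were tested on single libraries with the line as covariate. Half-lives followed the study's methods (at least 1 CPM of mapped reads, 4 time points, R2 of at least 0.6), and they and label content were tested with limma 3.58.1. Adjusted p-values are Benjamini-Hochberg over all genes. Scripts were tested on simulated data: for abundance, 95% of 2-fold and 59% of 1.5-fold changes were recovered among 13165 genes. Every simulated gene had the same spread beyond counting error, so these shares are not the power for a given gene. Full values were given to genes past the threshold and to the highest and lowest of each class. The genes and lists were chosen with earlier results of these data known. Alternatives included DESeq2 1.42.0, filters, scalings and courses left out. Promoter sequences are from RefSeq (GRCh38.p14).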

Additional observations from a re-analysis of the deposited data

Results flagged for a closer look

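AARS2 had a T>C rate at 0 min of 1.06% in overexpression replicate 2 (95% Wilson interval of 0.79% to 1.42%, 4240 covered T bases), far from the other 3 courses, which had 0.00% and 0.05% in the knockdown line and 0.04% in overexpression replicate 1. It was the 1 gene of 35 tested where a course lay this far from the others. Chance alone gives about 1 such value in 20 tests.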

How the results depend on the processing

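In abundance between the lines, where 4 synthetases were called, 9 were called with the replicate block (5251 genes in all, against 2885) and 10 with all 34 libraries as samples (5198 in all). With each course left out in turn, which leaves a line with a single course, fewer were called. These were in part other synthetases than the 4 of the main test. In these fits the log2 difference ran from -0.59 to -0.32 for AARS and from -0.56 to -0.31 for TARS. It ran from -0.38 to -0.36 for DARS and from 0.42 to 0.48 for GARS. At 720 min over 0 min DESeq2 called 2 in place of 1, and 0 were called without the 720 min library of overexpression replicate 1 and in each fit with a course left out (0 to 0). The number called did not change otherwise by more than 1.5 times, and it was 0 under every alternative run for the label effect, the other chase times, the chase difference, half-life, label left and label content. Deviations of same-numbered samples correlated by 0.04 between the lines and by -0.04 to 0.12 (knockdown) and -0.03 to 0.32 (overexpression) between times. On that ground the main test did not take the numbers as pairs. The cytosolic synthetases did share a direction, however. Replicates 1 and 2 differed the same way in both lines for every cytosolic gene but DARS, EPRS and LARS. The main test leaves this out. The libraries that stand apart all belong to replicate 1, and their part in it was not tested. The replicate block changed no other number of synthetases called. Over all genes, the alternatives called 0 to 14 genes for the label effect, 5 to 64 at 180 min, 1 to 133 at 360 min, 10 to 583 at 720 min, 11 to 459 at 1440 min and 0 to 4 for the chase difference, against 0, 28, 41, 184, 131 and 0. Of 3639 log2 values of single genes under alternatives 275 had the other sign, none of them of a called gene. The cause of these shifts was not tested. Depth limits what can be said of the mitochondrial genes, which had fewer covered T bases and of which 3 had a half-life in every course.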

Other observations

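Some synthetase genes had reads in more than 1 3′ UTR interval, and where their mRNAs end was not tested. The rate of label at 0 min, summed over the 4 courses, differed between the intervals of a gene. RARS, the arginine enzyme of the multi-synthetase complex, had 79.4% of its reads in the interval at chr5:168519081-168519299 (hg38, plus strand), where 0.967% of T bases were converted. An upstream interval at chr5:168517815-168518062 held 8.82% of its reads at a rate of 1.30%, and another at chr5:168510581-168510686 held 7.37% at a rate of 0.575%. CARS, on the minus strand, had a rate of 0.989% in its main interval at chr11:3000922-3001248. The rate was 0.462% (55 of 11896 covered T bases) in one at chr11:3006879-3006959 that held 7.32% of its reads. NARS (1.09% and 0.937%) and QARS (0.698% and 0.801%) were closer between their main and their next interval. The interval that SARS2 shares with AC011455.2 had a rate of 0.607%.

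VARS, the cytosolic valine enzyme, had a T>C rate of 1.04% without s4U in knockdown replicate 1 (95% Wilson interval of 0.86% to 1.25%), above its own rate of 0.57% at 0 min in that course. In the other 3 unlabelled libraries it was 0.01% in knockdown replicate 2 and 0.00% in both overexpression replicates. Its interval is 76 bases long with 13 T, and its half-life was kept in overexpression replicate 2 alone.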
